A study of Mus musculus with 9 samples.

Results

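The genes described here are 10 chemokine and colony-stimulating factor genes tied to the gut epithelium, namely Cxcl1, Cxcl2, Cxcl5, Cx3cl1, Cxcl16, Ccl20, Ccl25, Ccl28, Csf1 and Csf1r. They were chosen by symbol, and all 10 had a row among the 46517 genes of each table. RNA sequencing covered 9 cultures of mouse duodenal organoids, which are 3D structures grown from intestinal crypts of wild-type C57BL/6 mice. In 3 groups of 3 cultures, single cells from passaged organoids were transduced with an adenovirus at 50 particles per cell, and RNA was taken about 72 hours later. Ad-GFP carried only green fluorescent protein and served as the control for transduction. Ad-hHIF2 and Ad-hHIF1 carried human HIF2 or human HIF1, each with the prolines exchanged that normally mark the protein for degradation. Every culture was kept at 5% oxygen in medium holding Wnt3a, R-spondin 3 and noggin, which favours intestinal stem cells, and no untransduced culture was analysed here. The expression is transient, and nothing in the labels says whether the cultures of a group came from separate mice, so that p-values measure only the spread between these samples.

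Chemokines are small secreted proteins that draw leukocytes along a gradient by binding G protein-coupled receptors, and the intestinal epithelium is one of their sources. Most are released at once, whereas the products of Cx3cl1 and Cxcl16 are anchored in the cell membrane and are shed by proteases such as ADAM10 and ADAM17. CSF1 is the growth factor that keeps macrophages alive through its receptor, the tyrosine kinase encoded by Csf1r. Many of these genes are textbook targets of NF-kB, while the hypoxia-inducible factors bind a short hypoxia response element (HRE).

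The promoters of 4 of the genes are shown because they belong to the ligand with the largest increase (Cx3cl1), the ligand with the largest decrease (Ccl20) and a pair of neighbouring CXC genes (Cxcl1 and Cxcl2). Each line gives the 250 bases before the RefSeq start on the plus strand of GRCm38.p6, at chr8:94771930-94772179, chr1:83116516-83116765, chr5:90890995-90891244 and chr5:90903649-90903898 in this order. Capitals mark the HRE core, searched as ACGTG or GCGTG on both strands, and the NF-kB decamer, searched by its consensus on both strands.
Cx3cl1: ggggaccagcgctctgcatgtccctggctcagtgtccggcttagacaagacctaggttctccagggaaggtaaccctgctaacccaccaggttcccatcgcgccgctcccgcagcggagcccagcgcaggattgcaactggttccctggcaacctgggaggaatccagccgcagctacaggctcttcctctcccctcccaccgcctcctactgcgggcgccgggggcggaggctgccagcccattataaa
Ccl20: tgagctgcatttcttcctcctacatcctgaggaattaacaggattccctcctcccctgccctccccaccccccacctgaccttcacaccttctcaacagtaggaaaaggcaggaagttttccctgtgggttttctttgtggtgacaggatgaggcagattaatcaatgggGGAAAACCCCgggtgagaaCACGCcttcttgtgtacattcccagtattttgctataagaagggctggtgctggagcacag
Cxcl1: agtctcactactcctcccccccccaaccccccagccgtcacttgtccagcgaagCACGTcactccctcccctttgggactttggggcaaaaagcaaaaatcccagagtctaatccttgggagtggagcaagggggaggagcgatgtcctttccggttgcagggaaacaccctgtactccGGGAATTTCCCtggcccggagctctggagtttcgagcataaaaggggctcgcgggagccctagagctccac
Cxcl2: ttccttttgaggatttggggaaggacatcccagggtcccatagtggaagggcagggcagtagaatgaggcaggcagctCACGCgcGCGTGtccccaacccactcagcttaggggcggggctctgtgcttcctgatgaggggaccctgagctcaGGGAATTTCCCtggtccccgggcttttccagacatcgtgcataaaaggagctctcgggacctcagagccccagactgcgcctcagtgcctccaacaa

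Of the 10 genes, 7 had a RefSeq promoter window of 300 bases, which also takes in 50 bases after the start. An HRE core was found in 4 of these 7 genes (Cxcl1, Cxcl2, Ccl20 and Ccl25), and 43.8% of all 32851 windows of this length held one. An NF-kB decamer was found in 4 of the 7 (Cxcl1, Cxcl2, Ccl20 and Csf1), against 8.46% of all windows. Cxcl1 and Cxcl2 carried the same decamer GGGAATTTCC, at positions -71 to -62 and -97 to -88 with the start base counted as 0, and in both a second match on the other strand overlapped it by all but a single base. The decamer of Ccl20 lay at positions -80 to -71 and its HRE core at -61 to -57. Cx3cl1 held neither motif in its window, and GENCODE M21 places the start of this gene at base 94772009, upstream of the RefSeq start. A match describes letters in the window and not a bound site.

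The tables summed to 21722618 to 51119041 expected counts per sample, which are read numbers that RSEM estimates after sharing reads among matching transcripts. Reads over mouse Epas1, the gene of HIF2, stood at a mean of 672.1 CPM (read counts scaled to a common library size by TMM) in Ad-hHIF2 organoids, 1.77 in Ad-GFP and 2.1 in Ad-hHIF1. Hif1a reads stood at 309 CPM with Ad-hHIF1 against 219.7 with Ad-GFP, and the difference did not pass (log2 0.49, standard error 0.104, edgeR adjusted p = 0.486). Against Ad-hHIF1, Hif1a was lower in Ad-hHIF2 organoids, at 226.9 CPM (log2 -0.45, edgeR adjusted p = 0.0086). How far reads of the human transgenes align to the mouse genes was not tested. The keratins Krt8, Krt18 and Krt19 were at 764.3 to 1357.6 CPM and Cdh1 at 204.1 to 352 CPM in the 9 samples. Other epithelial markers were lower, with Epcam at 1.42 to 3.8 CPM, Vil1 at 3.27 to 4.94, Cdx2 at 6.55 to 8.99 and Cdx1 at 0 counts in all 9 samples. Of 8 duodenal enterocyte markers, the transcription factor genes Onecut2 and Gata4 were at 73.9 to 132.9 and 19.8 to 34.7 CPM, Apoa4 at 0 to 2.81 CPM, and Fabp1, Fabp2, Apoa1, Alpi and Sis at 0 to 23 counts. Ad-hHIF1 replicate 3 stood apart, with 15.96% of its counts in the satellite-like genes Gm10800 and Gm26870 and 423.48 CPM (here of the total count) in 1818 olfactory and vomeronasal receptor genes that are silent in most tissues. The other 8 samples had 0.43% to 4.28% and 41.55 to 158.95 such CPM, and the Ad-hHIF2 samples (41.55 to 70.77) lay below those of Ad-GFP (80.38 to 140.37).

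The first question was which of these genes the control organoids express, and for this the CPM were divided by each gene's mean effective length in kilobases. In Ad-GFP organoids Cxcl5 was the highest, at 33.4 ± 3.51 CPM per kb (SD, n = 3), followed by Cxcl1 at 26.9 ± 1.73, Csf1 at 17.3 ± 2.01 and Cxcl16 at 14.3 ± 0.631. Cx3cl1 (7.34 ± 0.982) and Ccl20 (7.07 ± 0.475) were next and their ranges overlapped. Ccl25 followed at 3.73 ± 0.907, Cxcl2 at 1.76 ± 0.674, Csf1r at 0.258 ± 0.179 and Ccl28 at 0.0404 ± 0.0278 CPM per kb, with overlap between the last pair. In Ad-hHIF1 organoids the order was the same except that Ccl20 (8.73 ± 0.583) stood above Cx3cl1 (7.35 ± 0.496). In Ad-hHIF2 organoids Cx3cl1 reached 20.2 ± 1.82 CPM per kb and the second place, where its range overlapped that of Cxcl1 (20.1 ± 2.15), and Cxcl1 overlapped Cxcl16 (18.6 ± 0.979), which overlapped Csf1 (17.3 ± 1.22). Ccl20, at 3.37 ± 0.333, then overlapped Ccl25 at 2.86 ± 0.572.

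**Figure D1:**
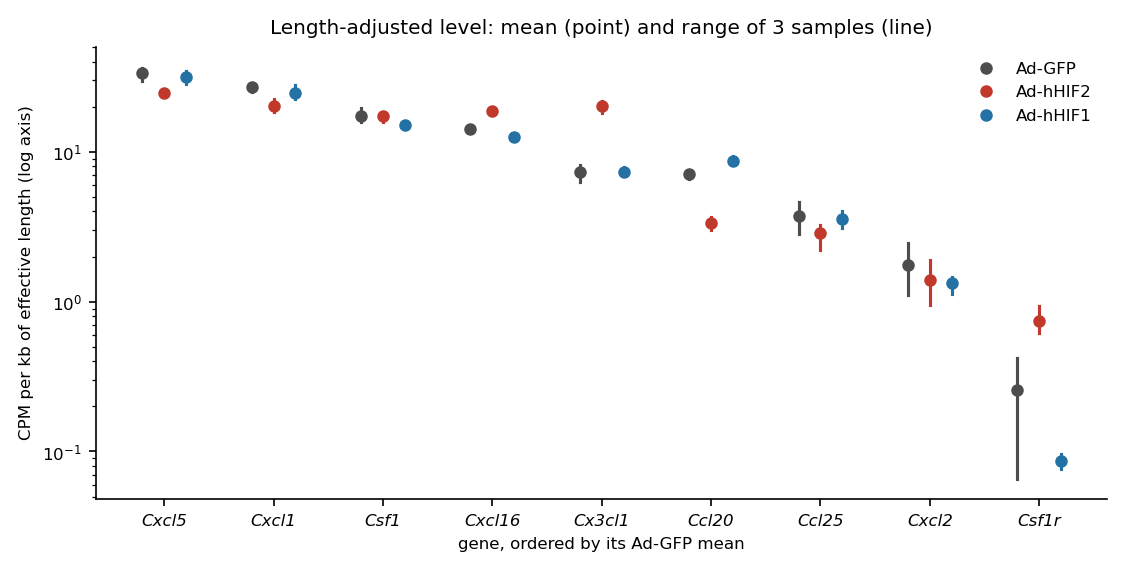
Level of 9 of the genes per kilobase of effective length (CPM per kb, log axis), with the mean as a point and the range of 3 samples as a line for Ad-GFP, Ad-hHIF2 and Ad-hHIF1, ordered by the Ad-GFP mean. Cx3cl1 moved from 7.34 CPM per kb in Ad-GFP to 20.2 in Ad-hHIF2 organoids; Ccl28, with samples at 0, is left out.

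The second question was which of them differed between the HIF and the control organoids. Of the 10 genes, 9 had enough counts to be tested, and Ccl28 did not. A gene passed at an edgeR adjusted p below 0.05. In Ad-hHIF2 against Ad-GFP organoids, 3 of the 9 were higher (Cx3cl1, Cxcl16 and Csf1r), beside 15.9% of all genes tested, and 3 were lower (Ccl20, Cxcl5 and Cxcl1), beside 13.6% of all genes. Among these, Cx3cl1, Ccl20 and Csf1r also changed at least 2-fold, as did 6.73% of all genes. The samples of both groups did not overlap for these same 6 genes, beside 45.8% of all genes. Some duodenal enterocyte markers moved with these genes. Their summed level was 97.2 to 109.5 CPM in Ad-GFP, 153.3 to 167 in Ad-hHIF2 and 100.9 to 113.3 in Ad-hHIF1 samples, and 3 of the 5 tested were higher in Ad-hHIF2 than in Ad-GFP, namely Onecut2 (log2 0.60, edgeR adjusted p = 0.00196), Gata4 (log2 0.59, edgeR adjusted p = 0.00101) and Apoa4 (0 to 1 count in Ad-GFP and 76 to 143 in Ad-hHIF2 samples, edgeR adjusted p = 5.51e-05). Onecut2 and Gata4 carry most of this sum, and Fabp2, at 0.502 CPM in Ad-GFP and 0.148 in Ad-hHIF2 on average, did not pass, with all Ad-hHIF2 below all Ad-GFP samples (log2 -1.67, edgeR adjusted p = 0.0837). Of the 7 epithelial markers tested, Epcam was lower (log2 -0.81, edgeR adjusted p = 0.0472) and Cdh1 higher (log2 0.535, edgeR adjusted p = 0.00313) in Ad-hHIF2 than in Ad-GFP, and 5 did not pass. The part of the enterocyte and epithelial markers in the levels of the 9 genes was not tested. The median log2 fold change of the 9 was -0.33, and that of all genes tested was -0.01. With limma on log2(TPM + 1) or log2(TPM + 0.1), only Cx3cl1 and Csf1r of the 9 passed, and the median of all genes moved to 0.12 and 0.30. After TMM scaling of the TPM, an alternative added after the data were seen, the median was -0.01 and 6 of the 9 passed.

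In Ad-hHIF1 against Ad-GFP organoids, 0 of the 9 genes passed with edgeR, DESeq2 or limma, as did 0% of all genes with edgeR. At an unadjusted p below 0.05 edgeR gave 1 of the 9 (Csf1r), beside 8.59% of all genes. The samples did not overlap for Ccl20, which was higher, and for Cxcl16 and Csf1, which were lower, and 17.4% of all genes had groups that did not overlap. The HIF groups were also compared directly. Ad-hHIF2 exceeded Ad-hHIF1 organoids in Cx3cl1, Cxcl16 and Csf1r (3 of 9, beside 13.7% of all genes) and was lower in Ccl20 and Cxcl5 (2 of 9, beside 12% of all genes). Of these, 3 passed at 2-fold or more, beside 6.11% of all genes, and 6 of the 9 had groups that did not overlap, beside 41.8%. Without Ad-hHIF1 replicate 3 and Ad-GFP replicate 4, the sample with the fewest counts, left out together after the data were seen, 0 of the 9 passed by edgeR in Ad-hHIF1 against Ad-GFP and 5 in the direct comparison. The comparisons with Ad-GFP share its 3 samples, and those with Ad-hHIF2 share that group.

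**Figure D2:**
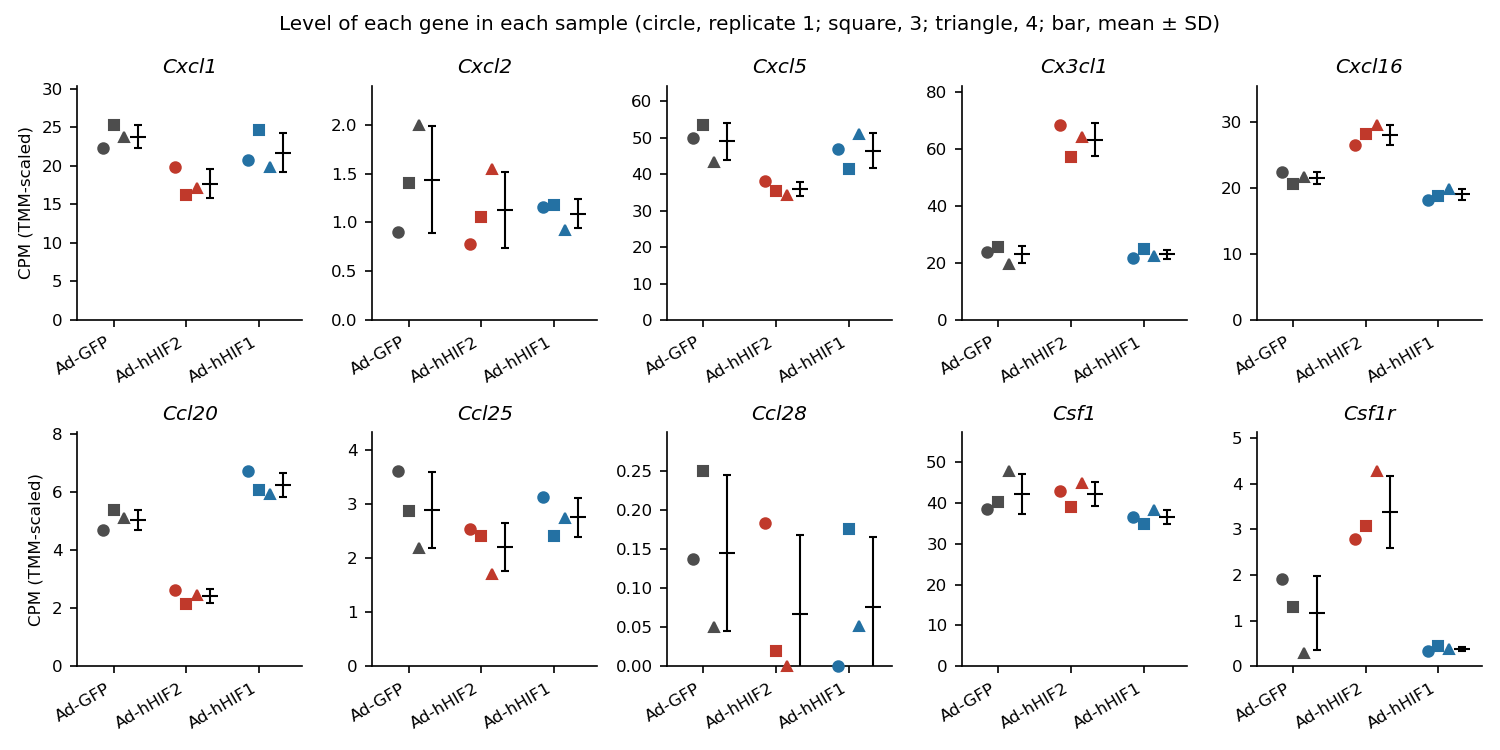
CPM of each of the 10 genes (y axes start at 0) in the 3 samples of Ad-GFP, Ad-hHIF2 and Ad-hHIF1 organoids, with symbols for replicates 1, 3 and 4 and a bar for the mean ± SD. All 3 Ad-hHIF2 samples of Cx3cl1 (57.1 to 68.4 CPM) lay above the other 6 (19.6 to 25.6), and those of Ccl20 (2.16 to 2.63) below the other 6 (4.7 to 6.72).

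**Figure D3:**
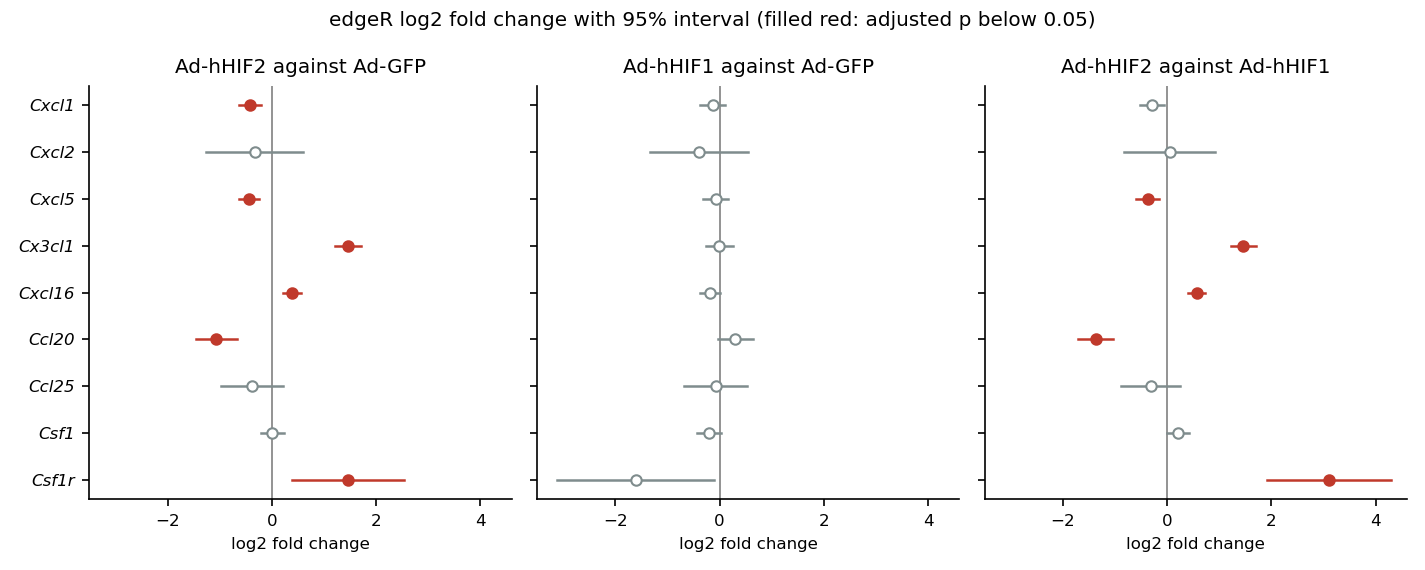
Log2 fold change of the 9 tested genes with its 95% interval in each of 3 comparisons (edgeR), filled red where the adjusted p was below 0.05. Cx3cl1 had 1.46 in both comparisons of Ad-hHIF2 and -0.00 in Ad-hHIF1 against Ad-GFP.

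Among the membrane-anchored ligands, Cx3cl1 encodes fractalkine, which binds CX3CR1 on monocytes and intestinal macrophages. It lies at chr8:94772009-94782427 (GRCm38) on the plus strand. Cx3cl1 was at 23.7, 25.6 and 19.6 CPM in Ad-GFP replicates 1, 3 and 4, at 68.4, 57.1 and 64.3 in Ad-hHIF2, and at 21.9, 24.8 and 22.3 in Ad-hHIF1. The Ad-hHIF2 samples were the highest and did not meet either other group, which overlapped each other. Its level was 2.75-fold higher in Ad-hHIF2 than in Ad-GFP organoids (log2 1.46, standard error 0.108, edgeR adjusted p = 3.41e-05). The fold against Ad-hHIF1 was also 2.75 (log2 1.46, standard error 0.108, edgeR adjusted p = 7.51e-06). For Ad-hHIF1 against Ad-GFP the 95% interval of the log2 difference ran from -0.26 to 0.26. Leaving out any 1 sample kept Cx3cl1 between 1.37 and 1.54 in Ad-hHIF2 against Ad-GFP.

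Cxcl16, the ligand of CXCR6 on T cells and also a scavenger receptor, lies at chr11:70453983-70459984 on the minus strand. Cxcl16 was at 22.4, 20.5 and 21.7 CPM in Ad-GFP, 26.5, 28.1 and 29.5 in Ad-hHIF2, and 18.2, 18.8 and 19.8 in Ad-hHIF1 organoids. The 3 groups did not overlap, with Ad-hHIF2 on top and Ad-hHIF1 at the bottom. The increase in Ad-hHIF2 was 1.31-fold over Ad-GFP (log2 0.38, standard error 0.0776, edgeR adjusted p = 0.00684) and 1.48-fold over Ad-hHIF1 (log2 0.56, standard error 0.0733, edgeR adjusted p = 0.000362). The log2 fold change of Ad-hHIF1 against Ad-GFP was -0.18 and did not pass (95% interval -0.37 to 0.01, edgeR adjusted p = 0.588). The expected counts of Cxcl16 were not whole numbers in any sample, so part of its reads was shared with other genes, and Zmynd15 overlaps it on the opposite strand. Zmynd15 had 1.07 CPM in Ad-GFP and 2.09 in Ad-hHIF2 organoids, and reads of the 2 genes cannot be told apart if the libraries did not mark strand.

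The genes that act on these anchored chemokines were 7 sheddases and inhibitors, all tested. In Ad-hHIF2 against Ad-GFP organoids 3 of the 7 were higher and 1 was lower (beside 15.9% higher and 13.6% lower of all genes), with a median log2 fold change of 0.15. Adam10, the sheddase of fractalkine and CXCL16 in resting cells, was at 29.3, 33.9 and 32.6 CPM in Ad-GFP, 81.6, 80.1 and 94.3 in Ad-hHIF2, and 38.3, 38.6 and 36.6 in Ad-hHIF1. All Ad-hHIF2 samples lay above the rest, and the increase passed against Ad-GFP (log2 1.42, standard error 0.0932, edgeR adjusted p = 1.76e-05) and against Ad-hHIF1 (log2 1.17, standard error 0.0846, edgeR adjusted p = 6.56e-06). Adam17, the inducible sheddase, was at 24.5, 21.5 and 18.9 CPM in Ad-GFP and 26.4, 28 and 25.6 in Ad-hHIF2. Its log2 fold change of 0.30 was at the threshold (standard error 0.0991, edgeR adjusted p = 0.0499) and ran up to an adjusted p of 0.159 with a sample left out. In Ad-hHIF1, Adam17 was at 23.2, 27.7 and 25.3 CPM (log2 0.23 from Ad-GFP, edgeR adjusted p = 0.617). The direct difference of Adam17 in Ad-hHIF2 from Ad-hHIF1 was 0.07 (edgeR adjusted p = 0.659). Timp3, an inhibitor of ADAM17, had a log2 fold change of 0.56 (edgeR adjusted p = 0.0157, at most 0.054 with a sample left out). Rhbdf1, an iRhom that escorts ADAM17 to the surface, was at -0.24 (edgeR adjusted p = 0.0447), no longer passed with any of the 6 samples left out (0.0551 to 0.137), and was at 0.02 with total counts and at 0.14 and 0.18 on the TPM scales. Rhbdf2, the other iRhom, passed only in the direct comparison, at 0.61 higher in Ad-hHIF2 (edgeR adjusted p = 0.0113, at most 0.0523 with a sample left out). Its mean was 23.3 CPM in Ad-GFP, 24.7 in Ad-hHIF2 (log2 0.10, edgeR adjusted p = 0.657) and 16.2 in Ad-hHIF1. Rhbdf1 and Rhbdf2 were lower in every Ad-hHIF1 than in every Ad-GFP sample. These decreases did not pass (log2 -0.38 and -0.52, edgeR adjusted p = 0.486 and 0.491).

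Among the CC chemokines of the gut, Ccl20 recruits CCR6-bearing lymphocytes and dendritic cells to the epithelium over lymphoid follicles. It lies at chr1:83116766-83119167 on the plus strand, next to the promoter printed above. Ccl20 was at 4.7, 5.38 and 5.1 CPM in Ad-GFP, 2.63, 2.16 and 2.46 in Ad-hHIF2, and 6.72, 6.09 and 5.93 in Ad-hHIF1 organoids, from 76 to 232 counts per sample. The 3 groups did not overlap, and Ad-hHIF2 was the lowest. It was 2.09-fold lower in Ad-hHIF2 than in Ad-GFP organoids (log2 -1.06, standard error 0.171, edgeR adjusted p = 0.0023) and 2.59-fold lower than in Ad-hHIF1 (log2 -1.37, standard error 0.153, edgeR adjusted p = 0.000133). Both calls ended on the unscaled TPM scales (limma adjusted p up to 0.45 and 0.103). Over all alternatives the log2 fold change of Ccl20 ran from -1.11 to -0.24 against Ad-GFP and from -1.43 to -0.52 against Ad-hHIF1. The values of -0.24 and -0.52 are differences of log2(TPM + 1), where the pseudocount shrinks the change of a low gene. The log2 fold change in Ad-hHIF1 against Ad-GFP was 0.30 and did not pass (95% interval -0.04 to 0.65, edgeR adjusted p = 0.602). Of 7 listed markers of M cells, the antigen-sampling cells of that epithelium, the defining Gp2, Spib and Sox8 had 0 to 4 counts and Tnfrsf11b had 4 to 20 counts in the 9 samples. The others, which further cell types also express, were Tnfrsf11a at 4.4 to 7.36 CPM, Marcksl1 at 16.7 to 25.2 and Anxa5 at 409.6 to 702.1. Among those tested only Anxa5 passed, 0.70 higher in Ad-hHIF2 than in Ad-GFP (edgeR adjusted p = 0.000287), beside 15.9% of all genes higher and 13.6% lower. The summed level of the 7, most of it from Anxa5, was 439 to 446.4 CPM in Ad-GFP, 670.4 to 730.4 in Ad-hHIF2 and 495.1 to 527.8 in Ad-hHIF1, and its part in the level of Ccl20 was not tested.

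Ccl25 draws CCR9-bearing lymphocytes to the small intestine. Ccl25 was at 3.61, 2.88 and 2.2 CPM in Ad-GFP, 2.54, 2.41 and 1.71 in Ad-hHIF2, and 3.14, 2.41 and 2.74 in Ad-hHIF1 organoids, with 44 to 132 counts per sample. All 3 groups overlapped. The log2 fold change of Ad-hHIF2 against Ad-GFP was -0.38 with a 95% interval from -0.97 to 0.21 (edgeR adjusted p = 0.303). Elavl1, at 36.3 to 41.4 CPM on average, overlaps Ccl25 on the opposite strand. Ccl28, which binds CCR10 and CCR3 and is better known from the colon, had 5, 9 and 1 counts in Ad-GFP, 8, 1 and 0 in Ad-hHIF2, and 0, 4 and 2 in Ad-hHIF1. A count of 0 allows up to 3 counts, which is 0.097 CPM in Ad-hHIF2 replicate 4 and 0.087 CPM in Ad-hHIF1 replicate 1, counting error only.

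The CXC ligands that act on CXCR2 of neutrophils are Cxcl1, Cxcl2 and Cxcl5, which lie together on chromosome 5. Cxcl5 (chr5:90759360-90761624) was at 50, 53.5 and 43.4 CPM in Ad-GFP, 38.1, 35.5 and 34.3 in Ad-hHIF2, and 47, 41.3 and 51 in Ad-hHIF1 organoids. Ad-hHIF2 lay below both other groups, which overlapped. Cxcl5 was 1.36-fold lower in Ad-hHIF2 than in Ad-GFP (log2 -0.44, standard error 0.0866, edgeR adjusted p = 0.00591), but at 0.02 and 0.01 (log2) on the unscaled TPM scales, where the sign was opposite. Against Ad-hHIF1 it was 1.29-fold lower (log2 -0.37, standard error 0.0989, edgeR adjusted p = 0.0206). That call ended without Ad-hHIF2 replicate 3 (0.0595) or 4 (0.0882), and without Ad-hHIF1 replicate 1 (0.0531) or 4 (0.0839), these being edgeR adjusted p.

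Cxcl1 (chr5:90891241-90893115) was at 22.3, 25.3 and 23.7 CPM in Ad-GFP, 19.9, 16.2 and 17.1 in Ad-hHIF2, and 20.8, 24.6 and 19.8 in Ad-hHIF1 organoids. The Ad-hHIF2 samples lay below all Ad-GFP samples and met those of Ad-hHIF1. Cxcl1 was 1.34-fold lower in Ad-hHIF2 than in Ad-GFP (log2 -0.42, standard error 0.0939, edgeR adjusted p = 0.0109), and without Ad-hHIF2 replicate 3 the call ended (log2 -0.36, edgeR adjusted p = 0.053). With total counts in place of TMM, Cxcl1 was at -0.15 and Cxcl5 at -0.18 and neither passed, while the median of all genes moved to 0.24. The direct log2 difference of Ad-hHIF2 from Ad-hHIF1 was -0.29 and did not pass for Cxcl1 (95% interval -0.53 to -0.05, edgeR adjusted p = 0.0715). It passed with at least 10 counts required in every sample (edgeR adjusted p = 0.0416) and without Ad-hHIF2 replicate 1 (edgeR adjusted p = 0.0492).

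Cxcl2 (chr5:90903871-90905938) was low in every group, at 0.902, 1.41 and 2 CPM in Ad-GFP, 0.777, 1.06 and 1.55 in Ad-hHIF2, and 1.16, 1.18 and 0.921 in Ad-hHIF1 organoids. The groups overlapped, and the 95% interval of its log2 fold change in Ad-hHIF2 against Ad-GFP ran from -1.26 to 0.60 (edgeR adjusted p = 0.579). Cxcl2 had 27 to 54 counts per sample, and this interval includes the log2 fold change of Cxcl1.

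Csf1 encodes the macrophage growth factor and lies at chr3:107741048-107760469 on the minus strand. Csf1 was at 38.4, 40.2 and 47.6 CPM in Ad-GFP, 42.8, 38.9 and 44.7 in Ad-hHIF2, and 36.4, 34.8 and 38.3 in Ad-hHIF1 organoids. Ad-hHIF2 and Ad-GFP overlapped throughout, and Ad-hHIF1 lay just below both. The log2 fold change of Ad-hHIF2 against Ad-GFP was 0.01 with a 95% interval from -0.21 to 0.23 (edgeR adjusted p = 0.961), which bounds a change in either direction at this level. For Ad-hHIF1 against Ad-GFP it was -0.20 (95% interval -0.43 to 0.02, edgeR adjusted p = 0.599), and for Ad-hHIF2 against Ad-hHIF1 it was 0.20 (95% interval 0.00 to 0.41, edgeR adjusted p = 0.131).

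Csf1r, the receptor of CSF1 and IL-34, is best known from macrophages and lies at chr18:61100598-61132149 on the plus strand. Csf1r was at 1.91, 1.3 and 0.3 CPM in Ad-GFP, 2.79, 3.08 and 4.27 in Ad-hHIF2, and 0.349, 0.438 and 0.384 in Ad-hHIF1 organoids. The Ad-hHIF2 samples were the highest, and Ad-GFP replicate 4 fell below all Ad-hHIF1 samples, so that those groups overlapped. Csf1r was 2.75-fold higher in Ad-hHIF2 than in Ad-GFP (log2 1.46, standard error 0.474, edgeR adjusted p = 0.0475). That call ended without Ad-GFP replicate 3 (0.11) and without Ad-hHIF2 replicate 1 (0.0719), 3 (0.0984) or 4 (0.144), these being edgeR adjusted p. It also ended with a replicate block. Against Ad-hHIF1 the fold was 8.63 (log2 3.11, standard error 0.535, edgeR adjusted p = 0.00201), and no omission of a single sample took the edgeR adjusted p above 0.0126. Over all alternatives the log2 fold change of Csf1r ran from 0.12 to 1.97 against Ad-GFP and from 0.15 to 3.27 against Ad-hHIF1. These ranges include differences of log2(TPM + 1), where the pseudocount shrinks the change of a gene this low. With 1 sample left out in edgeR, Csf1r stayed at 1.07 to 1.97 and at 2.92 to 3.24. Ad-hHIF1 against Ad-GFP gave a log2 fold change of -1.61 that did not pass (95% interval -3.12 to -0.10, edgeR adjusted p = 0.575).

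Markers of macrophages were measured beside Csf1r, because in bulk RNA fewer cells of a type and less RNA per cell cannot be told apart. The defining markers Adgre1 (0 to 0.2 CPM), Fcgr1 (0 to 0.3) and Ptprc (0 to 1.15) were near 0 in all 9 samples. The summed level of 10 macrophage markers was 19.9 to 29.1 CPM in Ad-GFP, 17.1 to 20.1 in Ad-hHIF2 and 16.4 to 23.4 in Ad-hHIF1, most of it from Cd68 and Cd14. Of the 6 tested in Ad-hHIF2 against Ad-GFP organoids, 0 were higher and 2 were lower by edgeR, beside 15.9% and 13.6% of all genes. The lower ones were Cd14 (log2 -1.20, edgeR adjusted p = 0.00319) and Ptprc (log2 -3.92, edgeR adjusted p = 0.00472). Ptprc had 18 to 24 counts in Ad-GFP and 0 to 3 in Ad-hHIF2 samples, so that its fitted value depends on few counts. Within Ad-GFP (0.492, 0.665 and 1.15 CPM) and within Ad-hHIF1 (0.291, 0.525 and 0.128 CPM) Ptprc had the same order of samples as the silent receptor genes. Within Ad-hHIF2 the order was reversed, with Ptprc at 0.0686, 0.0589 and 0 CPM beside 41.55, 49.51 and 70.77 CPM of those genes. The part of that background was not tested. In the direct comparison with Ad-hHIF1, 13.7% of all genes were higher in Ad-hHIF2 and 12% lower. Among the macrophage markers Cd68 was higher (log2 0.60, edgeR adjusted p = 0.0374), and Cd14 (-1.08, edgeR adjusted p = 0.00743) and Ptprc (-2.64, edgeR adjusted p = 0.0472) were lower. The part of these markers in the level of Csf1r was not tested. The expected counts of Csf1r were not whole numbers in any sample and numbered 6.02 to 156.53. Hmgxb3, which overlaps Csf1r on the opposite strand, did not pass in Ad-hHIF2 against Ad-GFP (log2 -0.14, standard error 0.0826, edgeR adjusted p = 0.25) at 19.4 to 23.8 CPM on average.

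The receptors for these ligands were rare in the organoids. Of 23 chemokine receptor genes 8 were tested, and in Ad-hHIF2 against Ad-GFP organoids 1 was higher and 0 were lower by edgeR (beside 15.9% higher and 13.6% lower of all genes). The median log2 fold change was -0.72, and the tested receptors other than Ackr3 lay at 0 to 5.96 CPM. The background of the silent receptor genes was lower in every Ad-hHIF2 than in every Ad-GFP sample, and its part in these values was not tested. Ccr6, the receptor of CCL20, had 0 to 2 counts in any sample, Ccr3 0 to 1, Ccr9 0 to 8, and Cxcr6 0 to 9. Cx3cr1 was at 0 to 0.847 CPM, highest in Ad-GFP replicate 1, and Ccr10 at 0.116 to 0.8 CPM. Cxcr2, the neutrophil receptor of CXCL1 and CXCL5, was at 1.64, 2.44 and 2.15 CPM in Ad-GFP, 0.915, 1.28 and 1.52 in Ad-hHIF2, and 1.8, 2.23 and 1.43 in Ad-hHIF1. The decrease in Ad-hHIF2 against Ad-GFP did not pass (log2 -0.74, standard error 0.306, edgeR adjusted p = 0.1). The neutrophil markers S100a8, S100a9, Ly6g, Retnlg, Mpo and Elane had at most 7 counts in any sample. The receptor that rose was Ackr3, an atypical receptor that clears CXCL12, from 47.2 ± 4.36 CPM in Ad-GFP to 91.6 ± 5.42 in Ad-hHIF2 (SD, n = 3 each; log2 0.96, standard error 0.0887, edgeR adjusted p = 0.000124). In Ad-hHIF1 Ackr3 was at 51.9 ± 6.59 CPM.

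The other ligands and growth factors of the same families were compared from lists. Of 12 further CXC and XC ligands 3 were tested, and in Ad-hHIF2 against Ad-GFP organoids 1 was lower, beside 13.6% of all genes. This was Cxcl3, another CXCR2 ligand, at 4 ± 0.504 CPM in Ad-GFP and 2.62 ± 0.3 in Ad-hHIF2 (log2 -0.61, edgeR adjusted p = 0.0407), a call lost without any 1 of 5 of the 6 samples (edgeR adjusted p up to 0.126). Of 17 further CC ligands 4 were tested and 2 were lower, beside 13.6% of all genes, with a median log2 fold change of -1.46. Ccl9, a chemokine of myeloid cells, was at 3.85, 3.02 and 5.35 CPM in Ad-GFP, 1.03, 0.883 and 1.1 in Ad-hHIF2, and 4.01, 2.45 and 2.35 in Ad-hHIF1. The Ad-hHIF2 samples lay below all others, with a log2 fold change of -2.01 from Ad-GFP (standard error 0.279, edgeR adjusted p = 0.00106) and -1.56 from Ad-hHIF1 (standard error 0.303, edgeR adjusted p = 0.00403). Ccl2, the monocyte attractant, was at 0.699 ± 0.304 CPM in Ad-GFP and 0.207 ± 0.0412 in Ad-hHIF2 (log2 -1.70, edgeR adjusted p = 0.0344), and no longer passed with any of the 6 samples left out. Ccl2 had 4 to 21 counts in the 9 samples. The background of the silent receptor genes was also lower in every Ad-hHIF2 than in every Ad-GFP sample. In Ad-hHIF1, Ccl2 was at 0.116, 0.438 and 0.153 CPM beside 158.95, 423.48 and 62.26 CPM of those genes. Every Ad-hHIF1 sample of Ccl2 lay below every Ad-GFP sample (log2 -1.59, edgeR adjusted p = 0.588). The direct difference of Ad-hHIF2 from Ad-hHIF1 was -0.12 (edgeR adjusted p = 0.919). The part of that background in Ccl2 was not tested.

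Of 7 further genes of the CSF family 4 were tested, and 3 were lower in Ad-hHIF2 than in Ad-GFP organoids, beside 13.6% of all genes. Csf2, which encodes GM-CSF, was at 11.4, 9.81 and 13.6 CPM in Ad-GFP, 2.61, 2.37 and 2.75 in Ad-hHIF2, and 13.1, 14.1 and 15 in Ad-hHIF1. The Ad-hHIF2 samples were far below the rest, with a log2 fold change of -2.17 from Ad-GFP (standard error 0.158, edgeR adjusted p = 3.26e-05) and -2.45 from Ad-hHIF1 (standard error 0.141, edgeR adjusted p = 1.44e-06). Il34, the second ligand of CSF1R, was at 7.16, 7.87 and 6.2 CPM in Ad-GFP, 4.69, 5.04 and 4.62 in Ad-hHIF2, and 9.16, 5.69 and 8.98 in Ad-hHIF1. Its log2 fold change was -0.56 from Ad-GFP (edgeR adjusted p = 0.0146, at most 0.0595 with a sample left out) and -0.74 from Ad-hHIF1 (edgeR adjusted p = 0.0149, at most 0.06). Csf2rb2, a receptor subunit whose reads may be split with its close paralog Csf2rb, was at 1.34 ± 0.525 CPM in Ad-GFP and 0.246 ± 0.0477 in Ad-hHIF2 (log2 -2.42, edgeR adjusted p = 0.00539). In Ad-hHIF1 its 3 samples spread from 0.256 to 2.85 CPM, with the highest in replicate 3, the library that stood apart. Csf2rb2 and the silent receptor genes had the same order within the Ad-GFP samples (0.765, 1.44 and 1.8 CPM of Csf2rb2 beside 80.38, 126.48 and 140.37 CPM of those genes) and within the Ad-hHIF1 samples (0.756, 2.85 and 0.256 CPM beside 158.95, 423.48 and 62.26 CPM). Within the Ad-hHIF2 samples the order differed (0.252, 0.196 and 0.291 CPM beside 41.55, 49.51 and 70.77 CPM). The part of that background was not tested.

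**Figure D4:**
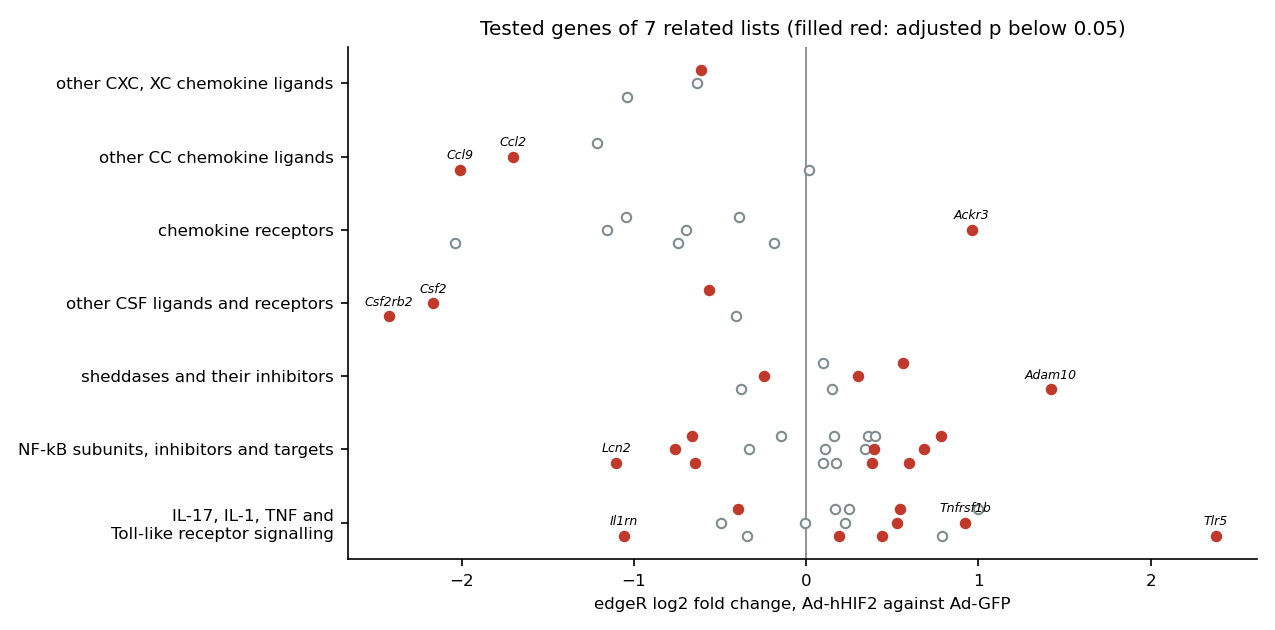
Log2 fold change of Ad-hHIF2 against Ad-GFP (x axis, edgeR) for each tested gene of 7 related lists, filled red where the adjusted p was below 0.05, with gene names for the larger changes. Csf2rb2, Csf2, Ccl9 and Ccl2 lay at -1.70 or lower, as did Ccr4 (-2.04), which did not pass, and Adam10 and Tlr5 lay at 1.42 and 2.38.

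NF-kB drives many chemokine genes, and its subunits, inhibitors and targets were taken as a list. Of 20 genes 18 were tested in Ad-hHIF2 against Ad-GFP organoids, 5 were higher and 4 were lower (beside 15.9% higher and 13.6% lower of all genes), and the median log2 fold change was 0.17. The 3 subunit genes that passed were higher, namely Nfkb1 (log2 0.60, edgeR adjusted p = 0.000376), Rela (0.39, edgeR adjusted p = 0.0348) and Nfkb2 (0.38, edgeR adjusted p = 0.0108), and the subunits Relb (0.40, edgeR adjusted p = 0.0672) and Rel (-0.14, edgeR adjusted p = 0.477) did not pass. The 4 lower genes were Lcn2, a siderophore-binding antimicrobial protein (log2 -1.10, edgeR adjusted p = 0.000287), Tnfaip3, the inhibitor A20 (-0.76, edgeR adjusted p = 8.66e-05), Nfkbiz, a nuclear cofactor (-0.66, edgeR adjusted p = 0.000428), and Icam1, a leukocyte adhesion molecule (-0.64, edgeR adjusted p = 0.0112). The other 2 higher genes were Zc3h12a, a nuclease that degrades cytokine mRNAs (0.78, edgeR adjusted p = 0.00329), and Bcl3, a nuclear inhibitor-like protein (0.68, edgeR adjusted p = 0.00588). Bcl3 passed under all 16 alternatives and Zc3h12a under 15. Nfkb1, Nfkb2 and Rela were not run through the alternatives in this comparison. On the unscaled TPM scales the 4 lower genes did not pass (limma), with log2 values of -0.56 and -0.63 for Lcn2, -0.18 and -0.28 for Tnfaip3, -0.14 and -0.20 for Nfkbiz and -0.03 and -0.13 for Icam1, and with total counts Nfkbiz (-0.40) and Icam1 (-0.38) did not pass either. Lcn2 was at 58.5 ± 7.24 CPM in Ad-GFP, 27.2 ± 3.51 in Ad-hHIF2 and 59.7 ± 2.84 in Ad-hHIF1 (SD, n = 3 each). In Ad-hHIF1 against Ad-GFP 0 of 19 passed by edgeR, and 2 had an unadjusted p below 0.05, beside 8.59% of all genes. In the direct comparison 8 of 19 were higher in Ad-hHIF2 and 4 lower, beside 13.7% and 12% of all genes, among them the subunit Nfkb1 (0.61 higher, edgeR adjusted p = 9.12e-05).

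Upstream of NF-kB, 18 genes of IL-17, IL-1, TNF and Toll-like receptor signalling were listed, signals to which the epithelium answers with chemokines. In Ad-hHIF2 against Ad-GFP organoids 16 were tested, 6 were higher and 2 were lower (beside 15.9% higher and 13.6% lower of all genes), with a median log2 fold change of 0.24. Tlr5, the receptor for bacterial flagellin, rose from 0.465 ± 0.0999 to 2.49 ± 0.848 CPM (mean ± SD of 3 samples; log2 2.38, edgeR adjusted p = 0.0022). Il1rn, the antagonist of the IL-1 receptor, fell from 31.2 ± 1.15 to 15 ± 0.997 CPM (log2 -1.06, edgeR adjusted p = 3.26e-05), but Il1rn did not pass on the unscaled TPM scales (log2 -0.27 and -0.41, limma). Tnfrsf1b, a TNF receptor, rose from 13.6 ± 0.825 to 25.8 ± 1.13 CPM (log2 0.92, edgeR adjusted p = 8.66e-05), and passed under 15 of 16 alternatives. Irak4, a kinase of the IL-1 and Toll-like receptors (0.54), Traf3ip2, the IL-17 receptor adaptor (0.53), and Il1r1, the IL-1 receptor (0.44), were also higher, and the calls of Traf3ip2 and Il1r1 ended with some samples left out (edgeR adjusted p up to 0.0895 and 0.0543). Irak4 passed under 14 of 16 alternatives. In Ad-hHIF1 against Ad-GFP 0 of 17 passed by edgeR, and 1 had an unadjusted p below 0.05, beside 8.59% of all genes. This was Irak4, higher in every Ad-hHIF1 than in every Ad-GFP sample (log2 0.48, edgeR adjusted p = 0.49). The direct difference of Irak4 in Ad-hHIF2 from Ad-hHIF1 was 0.06 (edgeR adjusted p = 0.729).

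For the 3 genes that passed at 2-fold or more, the genes with the most similar pattern over the 9 samples were found among 12386 tested genes of at least 1 CPM. By Pearson's r of log2(CPM + 1), the nearest to Cx3cl1 were 2610528A11Rik (r = 0.995), Otud3 (0.993) and Limd2 (0.993). Nearest to Ccl20 were Ptcd3 (0.993), Jade3 (0.99) and Fam60a (0.989), which were also lowest in Ad-hHIF2 and highest in Ad-hHIF1. Nearest to Csf1r were Fam179b (0.979), Clip2 (0.97) and H3f3a (0.967). These values describe 9 samples that share 3 groups, and carry no test.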

How the data were processed

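The 9 RNA sequencing libraries came from duodenal organoid cultures, 3 per group, with groups and replicate numbers 1, 3 and 4 taken from the labels. The authors removed low-quality reads and deposited expected counts estimated with RSEM, which are not normalized. The authors' tables also hold TPM, computed by RSEM and used here only in alternatives, and FPKM as deposited, which were not used. The RSEM version, aligner, genome build, annotation and strandedness are not given in the sources used here.

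Expected counts were rounded (85.7% were whole), filtered with filterByExpr, normalized by TMM and passed to the quasi-likelihood test of edgeR 4.0.16 (R 4.3.3, with limma 3.58.1), with Benjamini-Hochberg adjustment over all genes tested. Both HIF groups were set against Ad-GFP in fits of 6 samples, and Ad-hHIF2 with Ad-hHIF1 in all 9. CPM used TMM factors over 9 samples. Standard errors came from the F statistic. With 3 samples per group an exact permutation test cannot give a two-sided p below 0.10. Replicates differed beyond sampling noise (chi-square per degree of freedom 25.9 or more). Alternatives were other filters and scalings, DESeq2 1.42.0, limma on TPM, other sample sets, a replicate block and each sample left out.

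Members and lists were chosen with earlier results of these data known. Named were all members, passing genes of each related list up to the 6 largest changes, the members' receptors, Il34, Adam10 and Adam17, the 3 genes most like each member that passed at 2-fold, and defining markers. Epas1, Hif1a, the overlapping genes and the library genes, further NF-kB genes and markers beyond the defining ones are named outside this rule. Gene positions came from GENCODE M21 (GRCm38) by Ensembl identifier and promoters from RefSeq (GRCm38.p6) by symbol. Python 3.11.15 and matplotlib 3.10.9 drew the figures.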

Additional observations from a re-analysis of the deposited data

Results flagged for a closer look

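The effects of Ad-hHIF2 and Ad-hHIF1 on 29 genes, 5 of the 10 and 24 of the related lists, differed by the direct test of the HIF groups in edgeR (adjusted p at most 0.0369). Of all 15556 genes tested, 13.7% were higher in Ad-hHIF2 and 12% lower. From the related lists, 3 CXC and XC ligands, 4 CC ligands, 8 receptors, 4 CSF genes and 7 sheddases or inhibitors were tested. So were 19 NF-kB and 17 receptor signalling genes. Each value is the log2 difference of Ad-hHIF2 from Ad-hHIF1. Of the 10 chemokine and CSF genes, Csf1r (3.11), Cx3cl1 (1.46) and Cxcl16 (0.563) were higher in Ad-hHIF2, and Ccl20 (-1.371) and Cxcl5 (-0.37) were lower. Among related ligands, receptors and sheddases, Adam10 (1.173), Ackr3 (0.819) and Rhbdf2 (0.614) were higher, and Csf2 (-2.451), Ccl9 (-1.555) and Il34 (-0.736) were lower. Among NF-kB genes, Nfkb1 (0.611), Bcl3 (0.556), Birc3 (0.556), Rela (0.554), Zc3h12a (0.535), Relb (0.512), Nfkb2 (0.454) and Tnip1 (0.316) were higher, and Lcn2 (-1.136), Icam1 (-0.656), Tnfaip3 (-0.563) and Nfkbiz (-0.354) were lower. Among receptor signalling genes, Tlr5 (2.52), Tnfrsf1b (0.896), Traf3ip2 (0.474) and Ltbr (0.254) were higher, and Il1rn (-1.084) and Tlr4 (-0.625) were lower. Of the marker genes, Apoa4 (6.708, from counts at or near 0 in Ad-hHIF1), Cd68 (0.602), Onecut2 (0.536), Anxa5 (0.476), Gata4 (0.474) and Cdh1 (0.451) were higher and Ptprc (-2.637), Cd14 (-1.079) and Krt19 (-0.365) lower. Samples were left out in turn for the 10 genes and up to 6 of each list, and the calls of Birc3, Traf3ip2, Il34, Tlr4, Rhbdf2 and Cxcl5 then ended with some sample left out (largest edgeR adjusted p 0.164, 0.126, 0.06, 0.0935, 0.0523 and 0.0882).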

How the results depend on the processing

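The direction of every value that passed for the 10 genes was kept under each alternative in which the gene was tested, except Cxcl5 in Ad-hHIF2 against Ad-GFP on the unscaled TPM scales (0.016 and 0.010). Csf1r, with 6.02 counts in Ad-GFP replicate 4, was not tested where at least 10 counts were required in every sample. Calls ended for Cxcl1, Cxcl5, Cxcl16 and Ccl20 under unscaled limma on TPM, for Cxcl5 in the direct comparison with TMM-scaled TPM (limma adjusted p = 0.0566), for Cxcl1 and Cxcl5 with total counts, for Csf1r against Ad-GFP with a replicate block, and for Csf1r, Cxcl1 or Cxcl5 with some samples left out. Over all alternatives the log2 fold change of Ad-hHIF2 against Ad-GFP stayed at 0.343 to 0.768 for Cxcl16. It ran from -1.112 to -0.244 for Ccl20, -0.486 to -0.001 for Cxcl1 and -0.514 to 0.016 for Cxcl5. The last value of each range is a difference of log2(TPM + 1). Counts were fewest for Ccl28 (0 to 9 per sample), which was not tested, and the shares of counting error and of the spread between replicates in the wide intervals of Cxcl2, Ccl25 and Csf1r were not separated.

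Under limma on log2(TPM + 1) and log2(TPM + 0.1), Ad-hHIF2 against Ad-GFP gave 2 and 2 of the 9 genes, 1 and 1 at 2-fold, and 1010 and 1109 of all genes, against 6, 3 and 4416 in the main test. Ad-hHIF2 against Ad-hHIF1 gave 2 and 2 of the 9, 1 at 2-fold with a pseudocount of 1, and 367 and 460 of all genes, against 5, 3 and 4008. With TMM-scaled TPM, chosen after the data were seen, the counts were 6 of 9 and 1 at 2-fold against Ad-GFP, and 4 of 9, 2 at 2-fold and 2540 of all genes in the direct comparison. Total counts moved the median of all genes to 0.24 against Ad-GFP and 0.17 in the direct comparison, no count filter to -0.13 against Ad-GFP, and unscaled log2(TPM + 0.1) to 0.13 in Ad-hHIF1 against Ad-GFP and 0.17 in the direct comparison. For Ad-hHIF1 against Ad-GFP, where edgeR called 0 genes (1308 at an unadjusted p below 0.05), 384 were called without a count filter, 100 by DESeq2, 7 with all 9 samples in a single fit, and 13 without both Ad-GFP replicate 4 and Ad-hHIF1 replicate 3, chosen after the data were seen. The cause was not tested. With each sample left out in turn, Ad-hHIF2 against Ad-GFP gave 4 to 6 of the 9 genes, 1 to 3 at 2-fold (1 without Ad-hHIF2 replicate 3) and 3074 to 4539 of all genes, and the direct comparison 4 to 6, 3 and 2594 (without Ad-hHIF2 replicate 1) to 3624, or 4119 without both libraries.

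Among the named genes of the related lists in Ad-hHIF2 against Ad-GFP, Ackr3, Adam10, Bcl3, Ccl9, Csf2 and Tlr5 passed under every alternative run. Calls ended or signs turned for 17 and 15 of these genes under unscaled log2(TPM + 1) and log2(TPM + 0.1), 8 with TMM-scaled TPM, 6 with total counts and 3 to 7 with a sample left out. In the direct comparison they were 15, 14, 5 and 5, and 2 to 4 with a sample left out. The unscaled TPM scales thus changed most of the named genes in both comparisons.

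Values that changed sign were, in Ad-hHIF2 against Ad-GFP, Csf1 at -0.006 with at least 10 counts in every sample, -0.024 with TMM-scaled TPM and -0.053 to 0.111 with samples left out, Ccl25 at 0.046 and 0.088 on the TPM scales, and Rhbdf1 at 0.015 with total counts and 0.139 and 0.183 on the TPM scales. In Ad-hHIF1 against Ad-GFP they were Cx3cl1 at 0.001 with median-ratio factors, 0.074 with total counts, 0.104 and 0.197 on the TPM scales, 0.022 with TMM-scaled TPM and -0.102 to 0.076 with samples left out in turn. Its lowest value over all alternatives was -0.154. There, Cxcl5 was at 0.008 with total counts, 0.092 and 0.112 on the TPM scales and -0.156 to 0.001 with samples left out, and Ccl25 at 0.013, 0.046, 0.137 and -0.229 to 0.118 in the same order. Cxcl1 was at 0.029 and 0.037 and Cxcl2 at 0.026 and 0.086 on the TPM scales. In the direct comparison Cxcl2 was at -0.038 and -0.138 on the TPM scales, -0.275 with TMM-scaled TPM and -0.230 to 0.267 with samples left out.

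The replicate numbers were not taken to pair the samples. Correlations of same-numbered samples were 0.082, 0.101 and 0.25 for Ad-hHIF2 with Ad-GFP, where Ad-hHIF2 replicate 3 was closer to Ad-GFP replicate 1 (0.167), 0.184, 0.07 and -0.147 for Ad-hHIF1 with Ad-GFP, and -0.105, -0.13 and -0.272 for the HIF groups. With a replicate block, 5 of the 9 genes passed in Ad-hHIF2 against Ad-GFP, where Csf1r had 1.544 (edgeR adjusted p = 0.0565), 0 in Ad-hHIF1 against Ad-GFP, where Cx3cl1 was at 0.007, and 5 in the direct comparison, where Cxcl2 was at -0.025. The block gave 4631, 0 and 3638 of all genes.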
